A study of Acrobeloides nanus with 194 samples.

Results

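Pieces of embryos titled AB were compared with pieces titled E at a stage that the labels name E4, in Acrobeloides nanus, a free-living nematode. The 6 libraries were chosen by title, and they make up 3.09% of the samples of the series. The AB pieces were titled AB_POST_2, AB_ANT_2 and AB6_1, and the E pieces were titled E4_2, E4_2c_2 and E46_1, each name following the stage in the title. Every sample was 1 blastomere or a small cluster of cells, taken by hand from an embryo whose egg shell had been removed, and frozen on its own. Transcripts were amplified and counted with CEL-Seq2, which barcodes each sample and reads the 3' ends of its transcripts. All 6 are labelled as embryonic cells of that stage, with no strain, genotype or treatment given. No label explains POST, ANT, 2c or the 6 in AB6 and E46, or gives the number of cells in a piece.

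In the nematode Caenorhabditis elegans, AB is the larger daughter of the zygote and gives most of the epidermis and nervous system and part of the pharynx. E is a daughter of the cell EMS and founds the whole intestine, under a cascade of GATA-type transcription factors that begins in EMS. No gene name is attached to any row of counts, so neither the intestinal nor the ectodermal markers could be looked up. The identity of each piece therefore rests on its title, rows are given by their position in the table, and no sequence is shown.

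The pieces of each kind covered the same wide span of depth. AB_POST_2, AB_ANT_2 and AB6_1 held 109278, 14722 and 90601 counts, against 61884 in E4_2, 18079 in E4_2c_2 and 109112 in E46_1. The AB pieces averaged 71534 ± 50079 counts and the E pieces 63025 ± 45527 counts (SD, n = 3 each). The difference of mean log2 totals was 0.09, with a two-sided exact permutation p of 0.9, where 3 against 3 allows no p below 0.1. One count was worth 9.15 CPM (counts scaled to the library total) in AB_POST_2, 67.9 in AB_ANT_2 and 11.04 in AB6_1, against 16.2 in E4_2, 55.3 in E4_2c_2 and 9.16 in E46_1. AB_ANT_2 and E4_2c_2 were thus the coarsest measurements of their sides.

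The number of transcripts detected did not separate AB from E pieces. With at least 1 count, 14089, 5534 and 13774 rows were detected in AB_POST_2, AB_ANT_2 and AB6_1, against 11966 in E4_2, 6556 in E4_2c_2 and 13813 in E46_1, of 16853 rows in the table. When each library was thinned to 14722 counts, 6285, 5534 and 6507 rows were left in the AB pieces in the same order, against 6076, 5825 and 5981 in the E pieces. The thinned means were 6109 ± 510 rows in AB and 5961 ± 126.7 rows in E (SD, n = 3 each), with an exact permutation p of 0.7. The Benjamini-Hochberg adjusted p over this test and that of the totals was 0.9. AB pieces held both the lowest and the highest of the 6 thinned values. The 10 most abundant rows took 6.38%, 18.97% and 7.72% of counts in AB_POST_2, AB_ANT_2 and AB6_1, against 9.87% in E4_2, 12.3% in E4_2c_2 and 7.51% in E46_1. The shallowest library of each side gave the largest share to them. The highest single count was 618 in AB_ANT_2 and 414 in E4_2c_2, against 953 in AB_POST_2, 994 in AB6_1, 984 in E4_2 and 1020 in E46_1. No value in the columns used exceeded 1024, and the part of that upper value in these shares was not tested.

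**Figure D1:**
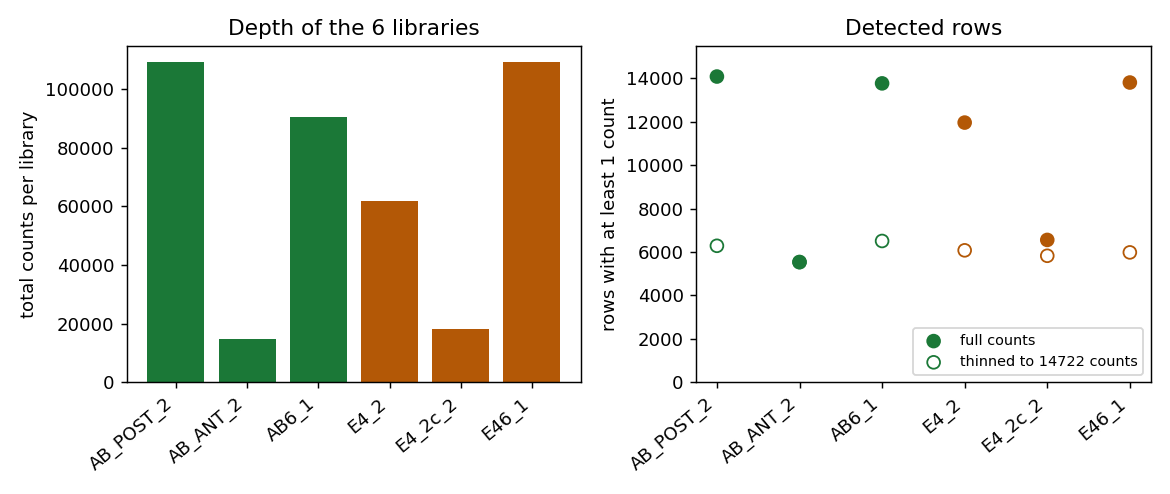
Total counts per library (left, bars) and rows with at least 1 count (right), for the AB pieces in green and the E pieces in brown, with filled points for full counts and open points for libraries thinned to 14722 counts. Detected rows followed depth, and after thinning they lay between 5534 and 6507 on the AB side and between 5825 and 6076 on the E side.

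The E pieces resembled each other more than the AB pieces did. Pearson correlations of log2(CPM + 50) were taken over the 1038 rows that passed the filter on low counts. Between AB pieces they were 0.470 for AB_POST_2 with AB_ANT_2, 0.638 for AB_POST_2 with AB6_1 and 0.495 for AB_ANT_2 with AB6_1. Between E pieces they were 0.677 for E4_2 with E4_2c_2, 0.679 for E4_2c_2 with E46_1 and 0.795 for E4_2 with E46_1. Over the 9 pairs of an AB piece with an E piece they ran from 0.358 to 0.782 with a median of 0.574, so that every correlation within AB lay inside the range of the mixed pairs. AB6_1 was more like E4_2 (0.782) and E46_1 (0.735) than like either other AB piece. With all libraries thinned to the same depth, the correlations were 0.416 to 0.454 within AB, 0.578 to 0.621 within E and 0.348 to 0.581 between the sides. These values are descriptive, since pairs share libraries, and every one of the 15 correlations was lower after thinning.

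The spread of single rows gave the same picture. The median SD of a row over 3 libraries was 0.64 on the log2(CPM + 50) scale in AB and 0.51 in E, and after thinning it was 0.87 in AB and 0.69 in E. The AB spread was the larger in 59.4% of the 1038 rows. AB_ANT_2 was the AB piece farthest from the mean of its side in 53.4% of rows, and E4_2c_2 the E piece farthest from its own in 46.9%. Both are the shallowest libraries of their sides, and the part of depth in the looser likeness of the AB pieces was not tested beyond the thinned values above. For reference, the 8 other pieces titled E4 correlated on average at 0.381 to 0.625 with the AB pieces and at 0.327 to 0.710 with the E pieces. Of these, CM6 averaged 0.590 with AB and 0.710 with E, and E2M 0.555 with AB and 0.709 with E. The piece titled P4D was at 0.459 with AB and 0.337 with E. The piece titled ANT, at 0.625 with AB and 0.706 with E, carries the stage label E2 while its title says E4.

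**Figure D2:**
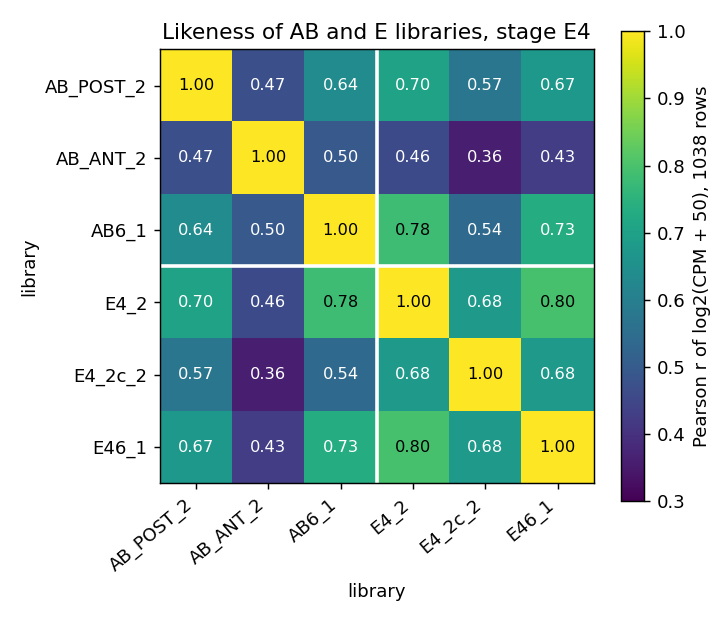
Pearson correlation of log2(CPM + 50) between each pair of the 6 libraries over 1038 rows, with AB pieces in the first 3 rows and columns and E pieces in the last 3. Values within E (0.68 to 0.80) were above those within AB (0.47 to 0.64), and AB6_1 reached 0.78 with E4_2.

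Row by row, no transcript separated AB from E pieces past the threshold. edgeR's quasi-likelihood test called 0 of 1038 rows (0%) at a Benjamini-Hochberg adjusted p under 0.05, and the smallest adjusted p was 0.0568. At an unadjusted p under 0.05 there were 74 rows (7.13%), of which 42 were higher in AB (4.05%) and 32 lower in AB (3.08%). DESeq2 called 7 rows on the same counts, 3 higher and 4 lower in AB, and 73 at an unadjusted p under 0.05. Without AB_POST_2 edgeR called 7 rows, and without AB6_1 or without E46_1 it called 1. Among the 42 rows higher in AB, log2 fold changes of AB over E ran from 1.08 to 6.33 with a median of 1.86. Among the 32 lower in AB, they ran from -1.09 to -5.15 with a median of -1.85. The p-values measure the spread between these 6 libraries. Titles ending in the same number may mark pieces of 1 embryo, which no label states. In pieces of this kind, fewer cells of a type and less RNA per cell cannot be told apart.

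Differences were about as large as their errors for most rows. Over the 1038 rows the median log2 fold change was 0.00 (-0.00316), the median size was 0.49 and the median standard error 0.61, from 0.18 to 1.42. Rows beyond a log2 fold change of 1 numbered 94 higher in AB (9.06%) and 84 lower (8.09%), and beyond 2 there were 16 in each direction (1.54% each). The CPM of the 3 AB pieces all exceeded those of the 3 E pieces in 66 rows (6.36%), and lay below them all in 83 rows (8%). With the rows split into equal parts by mean level, of 346 rows each, those at p under 0.05 were 23 in the lowest part, 19 in the middle and 32 in the highest. The test has 4 residual degrees of freedom and a common biological coefficient of variation of 0.495, which limits what it could call.

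**Figure D3:**
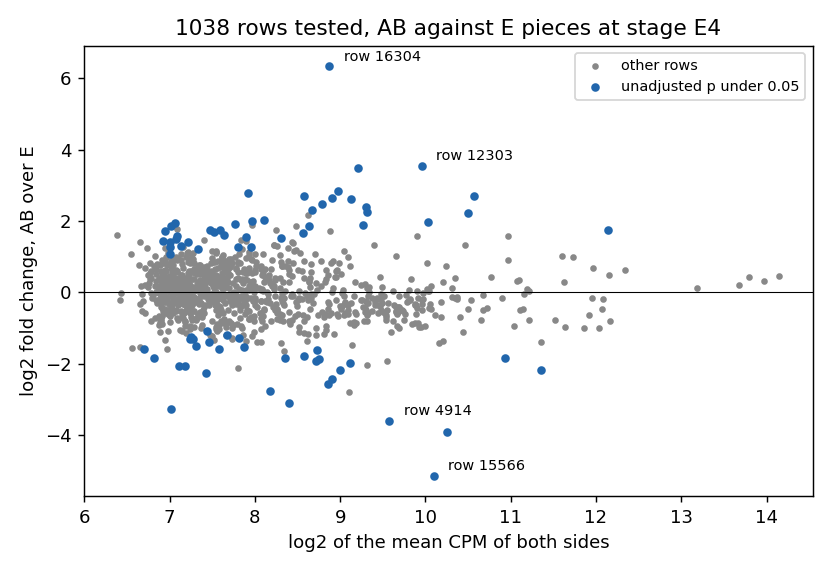
The log2 fold change of AB over E for each of the 1038 rows tested, against the log2 of the mean CPM of both sides, with the 74 rows at an unadjusted p under 0.05 in blue and the 4 named rows marked. Above 0 lie 516 rows and below it 522, and row 16304 stands highest at 6.33.

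Row 16304 had the smallest p and the largest log2 fold change towards AB among the 1038 rows tested with all 6 libraries. With no filter on low counts another row had a larger one, at 7.43 against 6.21, and without AB_POST_2 another did, at 5.24 against 5.01. Its level was 1977 CPM (216 counts) in AB_POST_2, 475 CPM (7 counts) in AB_ANT_2 and 331 CPM (30 counts) in AB6_1, against 16.2 CPM (1 count) in E4_2, 0 in E4_2c_2 and 9.16 CPM (1 count) in E46_1. All 3 AB pieces lay above all 3 E pieces, which the rule that named this row required. Even so, the 0 in E4_2c_2 allows up to 165.9 CPM (3 counts, for counting error only). The means were 928 ± 911 CPM in AB and 8.44 ± 8.10 CPM in E (SD, n = 3 each). The log2 fold change was 6.33 ± 1.06 (SE), with an unadjusted p of 5.47e-05 and an adjusted p of 0.0568 by edgeR, so the row did not pass. Its adjusted p was below 0.05 in 9 of 22 other forms of the analysis, which include left-out fits repeated with the same rows. Among them were DESeq2 (3.01e-05) and the edgeR fits without AB_POST_2 (0.00486) and without AB6_1 (0.0120). By edgeR it was 0.0680 without AB_ANT_2, 0.173 without E4_2, 0.740 without E4_2c_2 and 0.252 without E46_1. Over all forms it ranged up to 0.878.

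Row 12303 was the second that leaned to AB, through AB_ANT_2 and AB6_1. It stood at 284 CPM (31 counts) in AB_POST_2, 2853 CPM (42 counts) in AB_ANT_2 and 2340 CPM (212 counts) in AB6_1, against 210 CPM (13 counts) in E4_2, 110.6 CPM (2 counts) in E4_2c_2 and 155.8 CPM (17 counts) in E46_1. AB_POST_2 lay close to the E pieces, so the sides are separate by a narrow margin. The log2 fold change was 3.55 ± 0.86 (SE), with an adjusted p of 0.380 by edgeR. Without AB_POST_2 the adjusted p was 0.00930, and with DESeq2 it was 0.000984. The AB pieces thus did not share 1 pattern: row 16304 was highest in AB_POST_2, and row 12303 was lowest there among the AB pieces.

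Row 4914 leaned to E and had similar values in the AB pieces, at low counts. It had 91.5 CPM (10 counts) in AB_POST_2, 135.9 CPM (2 counts) in AB_ANT_2 and 121.4 CPM (11 counts) in AB6_1, against 323 CPM (20 counts) in E4_2, 1936 CPM (35 counts) in E4_2c_2 and 1970 CPM (215 counts) in E46_1. The groups did not overlap, which the rule that named this row required. The means were 116.3 ± 22.6 CPM in AB and 1410 ± 941 CPM in E (SD, n = 3 each). The value in AB_ANT_2 is under its floor of 203.8 CPM (3 counts). Its upper 95% limit, for counting error only, is 495 CPM, above E4_2. The log2 fold change was -3.60 ± 0.80 (SE), with an adjusted p of 0.360 by edgeR and 0.000125 by DESeq2.

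Row 15566 had the largest difference towards E among the rows at p under 0.05. It was at 0 in AB_POST_2, where 3 counts would be 27.5 CPM, at 135.9 CPM (2 counts) in AB_ANT_2 and at 88.3 CPM (8 counts) in AB6_1. The E pieces had 291 CPM (18 counts) in E4_2, 4038 CPM (73 counts) in E4_2c_2 and 2016 CPM (220 counts) in E46_1. The upper 95% limit in AB_ANT_2, for counting error only, is 495 CPM, above E4_2. The log2 fold change was -5.15 ± 1.27 (SE), with an adjusted p of 0.380 by edgeR and 0.199 by DESeq2. In both rows 4914 and 15566, E4_2 was the lowest of the 3 E pieces.

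The most abundant transcripts varied more between libraries of 1 side than between the sides. Row 11033 had 8062, 41978 and 10971 CPM in AB_POST_2, AB_ANT_2 and AB6_1, against 15901 CPM in E4_2, 22900 CPM in E4_2c_2 and 9348 CPM in E46_1. Its log2 fold change was 0.45 ± 0.87 (SE), with an adjusted p of 0.922 by edgeR. Row 16054 had 8721, 32468 and 10320 CPM in the AB pieces in that order, against 13849 CPM in E4_2, 21295 CPM in E4_2c_2 and 9284 CPM in E46_1, with a log2 fold change of 0.31 ± 0.82 (SE) and an adjusted p of 0.945. Without AB_ANT_2 both fold changes turned negative, to -0.67 and -0.56. Both rows were highest in the shallowest library of each side. Their counts reached 994 and 953 in the AB pieces and 1020 and 1013 in the E pieces, against a highest value of 1024 in the columns used. With counts expanded for an assumed 1024 identifiers, the log2 fold changes were -0.053 in row 11033 and 0.020 in row 16054. The part of that upper value in the levels of single libraries was not tested.

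Transcripts seen on 1 side alone were few and thinly counted. There were 63 rows with counts in all 3 AB pieces and none in the E pieces, with a median of 5 counts in sum and at most 75. There were 27 rows with counts in all 3 E pieces and none in the AB pieces, with a median of 4 counts and at most 10. None of these 90 rows entered the test. Counts in all 6 libraries were found for 2623 rows. At equal depth the one-sided rows came to 0.926% of the table for AB and 0.760% for E.

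The 4 named rows were looked up in libraries that did not choose them. At stage E2 the pieces titled AB2 and AB were set beside the 1 library titled E2 and beside E2MB, a title that no label explains and that is kept apart from E. Row 16304 had 770 CPM (13 counts) and 1178 CPM in the AB2 and AB pieces, against 37.9 CPM (1 count) and 165.4 CPM (4 counts) in the E2 and E2MB pieces. Row 4914 had 237 CPM (4 counts) and 85.7 CPM (12 counts) in the AB2 and AB pieces, against 1174 CPM (31 counts) and 2894 CPM (70 counts) in the E2 and E2MB pieces. Row 15566 had 296 CPM (5 counts) and 71.4 CPM (10 counts) in the AB2 and AB pieces, against 1325 CPM (35 counts) and 3597 CPM (87 counts) in the E2 and E2MB pieces. In these 3 rows both AB libraries lay on the E4 side of the E2 library and of E2MB, with no test. Over all 1038 rows, both AB libraries lay above both of these in 16.96% and below both in 11.7%. Row 12303 had 3318 CPM (56 counts) and 228 CPM (32 counts) in the AB2 and AB pieces, against 113.6 CPM (3 counts) in the E2 piece, with both AB libraries higher, and 1819 CPM (44 counts) in E2MB, which lay between them.

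At stage E8 the 4 rows were close to the limit of counting in most libraries, with floors of 3 counts at 27.7, 138.1 and 150.2 CPM in 3 libraries titled post_Abp, against 31.5, 239 and 95.9 CPM in 3 titled post_E. Row 15566 was at 18.5 CPM (2 counts), 0 and 0 in the post_Abp pieces, against 10.5 CPM (1 count), 0 and 0 in the post_E pieces. Row 4914 had 3, 3 and 1 counts in the post_Abp pieces, against 4, 1 and 3 counts in the post_E pieces. Row 16304 had 7, 0 and 1 counts (64.7, 0 and 50.1 CPM) in the post_Abp pieces, against 7, 1 and 8 counts (73.5, 79.8 and 255.6 CPM) in the post_E pieces. Row 12303 had 25, 5 and 1 counts (231, 230 and 50.1 CPM) in the post_Abp pieces, against 13, 2 and 59 counts (136.5, 159.6 and 1885 CPM) in the post_E pieces. Rows 15566, 4914 and 12303 overlapped between the groups. In row 16304 all 3 post_E pieces lay above all 3 post_Abp pieces, opposite to the order at E4. This had no test, and no share over all rows was taken beside it. Every value of that row rests on 8 counts or fewer. Whether these pieces hold the same lineages as the E4 pieces is not given.

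At the 13-cell stage, with 3 AB libraries and 1 E library, the 4 rows were uneven among AB cells. Row 16304 was at 145.1, 183.4 and 48.5 CPM in the AB libraries, against 54.7 CPM (1 count) in the E library. Row 12303 was at 348, 1547 and 67.9 CPM in the AB libraries, against 54.7 CPM (1 count) in the E library. Row 15566 was at 23.2, 0 and 408 CPM in the AB libraries, against 547 CPM (10 counts) in the E library. Row 4914 was at 58.1, 51.8 and 602 CPM in the AB libraries, against 383 CPM (7 counts) in the E library. With a single E library there is no replicate check.

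Among the other E4 pieces, row 16304 was highest in P4D at 4469 CPM, above all AB pieces, and lowest in ANT at 24.2 CPM. Row 12303 was highest in the piece titled C_MB, at 4504 CPM. Row 4914 was at 943 CPM in ANT and between 27.1 and 203 CPM in the 7 others. Row 15566 was at 786 CPM in ANT, 524 CPM in C_MB and 473 CPM in a MID piece, and at 0 in P4D. Among the other libraries with an assigned group and at least 10000 counts, which are 61.3% of the series, 0 exceeded the highest E piece in row 15566 and 2 did so in row 4914. The highest AB piece was exceeded by 2 libraries in row 16304 and by 12 in row 12303. The lowest E piece was exceeded by 21 libraries in row 15566 and by 11 in row 4914. The lowest AB piece was exceeded by 16 in row 16304 and by 61 in row 12303. At the 13-cell stage, the piece titled P4_3 had 2472 CPM (55 counts) in row 15566 and 3147 CPM (70 counts) in row 4914.

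**Figure D4:**
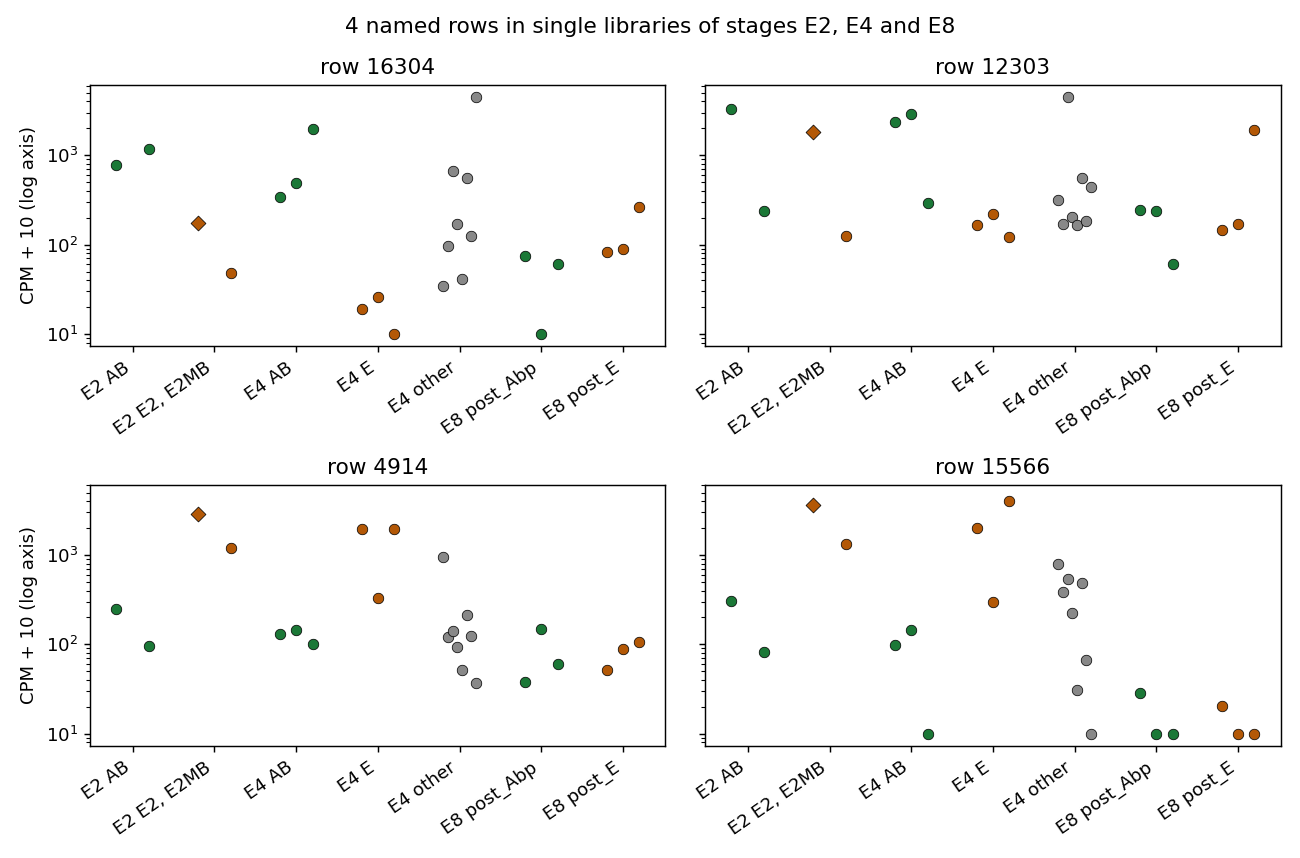
CPM + 10 on a log axis for rows 16304, 12303, 4914 and 15566, each point 1 library, with AB-titled pieces (Abp at E8) in green left of E-titled pieces in brown at stages E2, E4 and E8, a brown diamond for the E2MB piece and grey for other E4 titles. In rows 16304, 4914 and 15566 the AB pieces lie on the same side of E2 and E2MB at E2 as of E at E4. Of all 1038 rows, 16.96% had both AB pieces above both E2 and E2MB at E2, and 11.7% had them below both. At E8 most points rest on a few counts.

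A wider list of leaning rows was followed in the same way. The 50 rows with the smallest p in each direction were taken, which the 6 libraries chose, so their values there are only a description. The AB-leaning rows held 2.03%, 5.39% and 3.41% of counts in AB_POST_2, AB_ANT_2 and AB6_1, against 0.997% in E4_2, 0.758% in E4_2c_2 and 0.924% in E46_1. The E-leaning rows held 0.868%, 0.734% and 0.772% in the AB pieces in that order, against 2.43% in E4_2, 4.05% in E4_2c_2 and 3.66% in E46_1.

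At stage E2 the lists leaned the same way in part. The log2 difference of the mean of the 2 AB libraries from the E2 library was positive in 32 of the 50 AB-leaning rows, with a median of 0.54, and negative in 29 of the 50 E-leaning rows, with a median of -0.28. Over all 1038 rows 52.6% were positive and the median was 0.05. Most of the lean came from 1 library: AB2 against E2 had medians of 0.94 in the AB-leaning and -0.81 in the E-leaning rows, with -0.26 over all rows, while the deeper AB library had medians of 0.26 and 0.08, with 0.45 over all rows. Both AB libraries lay above the E2 and E2MB libraries in 12 of the 50 AB-leaning rows (24%), against 16.96% of all rows. The E2 and E2MB libraries lay above both AB libraries in 14 of the 50 E-leaning rows (28%), against 11.7% of all rows. In share of counts, the E-leaning rows took 1.00% and 1.504% of the AB2 and AB libraries, against 2.82% and 3.43% of the E2 and E2MB libraries. The AB-leaning rows took 6.00% and 1.17% of the AB2 and AB libraries, against 1.65% and 4.06% of the E2 and E2MB libraries, which overlap.

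Among the other E4 pieces, the share of the AB-leaning rows moved with depth. It was 2.28% to 6.34% in the 4 pieces under 50000 counts and 0.923% to 2.38% in the 4 deeper pieces. The E-leaning rows ran from 0.713% to 3.93% over the 8 pieces, with a MID piece highest and ANT next at 1.79%. At stage E8 the AB-leaning rows took 1.51% to 4.91% of counts in 11 libraries, with a median of 2.74%, and the E-leaning rows 0.565% to 1.75%, with a median of 1.02%. The E-leaning rows held the larger share in 2 of 4 libraries at E2, which were those titled AB and E2. The AB2 and E2MB libraries went the other way, so this did not follow the titles. The E-leaning rows also held the larger share in 2 of the 8 other E4 pieces. They did so in 0 of 11 libraries at E8, 0 of 8 titled VE, 0 of 4 titled LE and 0 of 11 titled Comma. Between E8 post_Abp and post_E, 5 of the 13 AB-leaning rows tested and 1 of the 3 E-leaning rows had a fold change above 0, beside 43.98% of all rows tested there. Between 13-cell AB and E, 35 of 49 AB-leaning and 28 of 48 E-leaning rows did, beside 78.3% of all 5030 rows. By sign, the AB-leaning rows thus stood near the share of all rows in both comparisons, and the E-leaning rows stood below it in the 13-cell comparison. The 13-cell medians were 0.72 in the AB-leaning and 0.58 in the E-leaning rows, both below the 2.59 of all rows, with 1 E library.

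**Figure D5:**
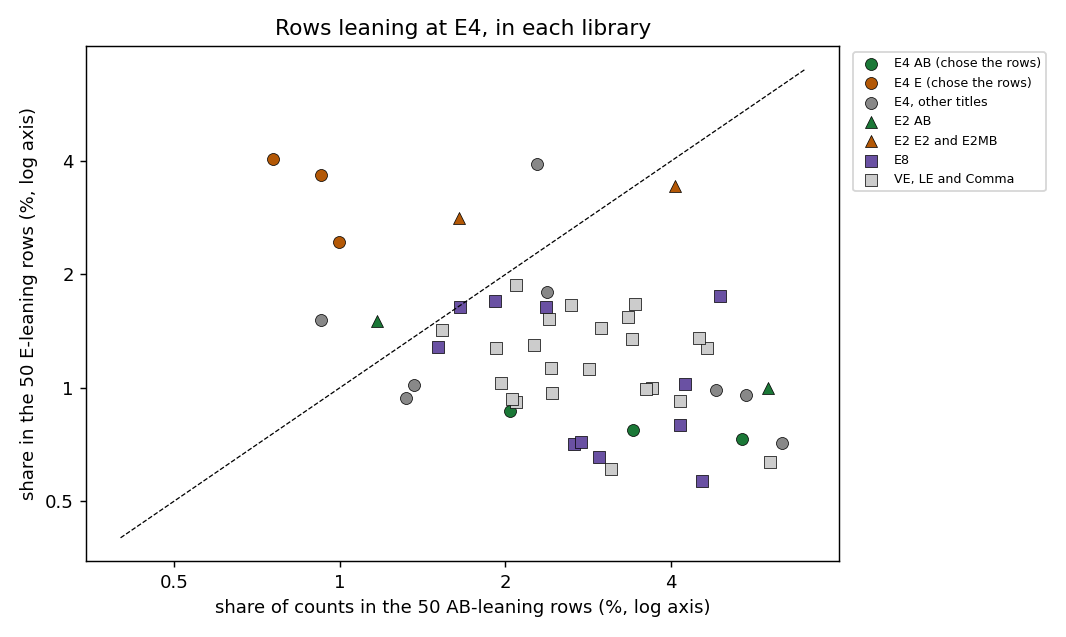
Share of each library's counts in the 50 AB-leaning rows (horizontal, log axis) and in the 50 E-leaning rows (vertical, log axis), each point 1 library, with equal shares on the dashed line. The E pieces at E4 and the E2 and E2MB libraries at E2 have 2.43% to 4.05% in the E-leaning rows, a level that 1 other E4 piece (3.93%) also reaches, while no E8 or later library is above 1.88%.

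Going back to the 3-cell stage, the AB-leaning rows were on balance less abundant in AB than in EMS, the mother of E. In the fit of 7 AB against 4 EMS libraries, the log2 fold change of AB over EMS was above 0 in 11 of 48 AB-leaning rows tested, beside 59.4% of all 3273 rows, with a median of -0.41 beside 0.15. It was above 0 in 23 of 34 E-leaning rows, near the share of all rows, with a median of 0.30. The AB-leaning rows took 0.699% to 2.81% of counts in the AB cells (median 1.13%), against 1.35% to 3.65% in the EMS cells (median 3.08%).

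Rows chosen at 3 cells as higher in EMS were nearly even by sign at E4, but held a larger summed share in the AB pieces. Of the 50 rows with the smallest p for being higher in EMS, 11 were tested at E4, and 6 of them were higher in AB, beside 49.7% of all rows, with a median log2 fold change of AB over E of 1.00, or 1.64 without AB_POST_2. Of these 11 rows, 4 had an unadjusted p under 0.05 by edgeR at E4, row 16304 among them, beside 7.13% of all rows. In summed counts the 50 rows took 1.25%, 1.47% and 1.95% of the library in AB_POST_2, AB_ANT_2 and AB6_1, against 0.493% in E4_2, 0.575% in E4_2c_2 and 0.632% in E46_1. The groups did not overlap, and this held without row 16304, which is among the 50, at 1.05%, 1.43% and 1.92% in the AB pieces, against 0.491% in E4_2, 0.575% in E4_2c_2 and 0.631% in E46_1. Among the lists from other stages, only this one had shares that did not overlap. With 3 libraries against 3, an exact permutation test allows no p below 0.1, and the shares were not tested. The 3-cell comparison itself called 1 of 3273 rows by edgeR (0.0306%), with 4.8% at an unadjusted p under 0.05, so this list holds mostly rows that did not pass there. Among the other E4 pieces its share ran from 0.405% in M6 to 2.75% in C_MB, across the range of both sides. Of the 11 tested rows among those lower in EMS, 7 were higher in AB at E4, with a median of 0.21, or -0.58 without AB_POST_2. Among these, 0 had an unadjusted p under 0.05 by edgeR.

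Rows chosen between E8 post_Abp and post_E pieces had medians near 0 at E4. Of the 50 higher in post_Abp, 24 of 48 tested were higher in AB at E4, with a median of 0.01, and of the 50 lower, 23 of 48 were higher in AB, with a median of -0.01. Leaving out 1 library at a time moved these medians between -0.19 and 0.20 and between -0.25 and 0.16. The E8 comparison called 0 rows by edgeR (0%), with 4 at an unadjusted p under 0.05 (2.09%). Rows chosen between 13-cell AB and E cells mostly had fold changes below 0 at E4 whichever way they had leaned: 45 of 50 among those higher in 13-cell AB (median -0.38) and 13 of 15 among those lower there (median -0.86). Without 1 library at a time the medians ran from -0.59 to -0.10 and from -1.51 to -0.37, the nearest to 0 without AB_ANT_2 in the first list and without AB_POST_2 in the second. With the title number as a replicate block the second median was -1.75. In summed counts the sides overlapped: the rows higher in 13-cell AB took 5.54%, 2.00% and 4.84% in AB_POST_2, AB_ANT_2 and AB6_1, against 6.01% in E4_2, 4.78% in E4_2c_2 and 5.57% in E46_1. The rows lower there took 2.29%, 8.71% and 5.08% in the AB pieces in that order, against 7.65% in E4_2, 6.95% in E4_2c_2 and 4.15% in E46_1. That comparison has 1 E library and called 0 of 5030 rows by edgeR (0%), with 369 at an unadjusted p under 0.05 (7.34%).

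Rows that change with stage leaned between AB and E pieces as well. Of 39 tested rows with the smallest p for being higher at E8 than at 2 cells, 29 were higher in AB at E4, with a median log2 fold change of 0.34, or 0.09 without E4_2c_2. Of 28 tested rows lower at E8, 23 were lower in AB, with a median of -0.50, or 0.12 without E46_1. Over all 1038 rows, 49.7% were higher in AB. The stage comparison, of 11 E8 libraries with 14 at 2 cells, called 65 of 879 rows by edgeR (7.39%), with 21.3% at an unadjusted p under 0.05. The rows higher at E8 took 2.66%, 2.21% and 2.92% of counts in AB_POST_2, AB_ANT_2 and AB6_1, against 2.32% in E4_2, 1.499% in E4_2c_2 and 2.14% in E46_1. The rows lower at E8 took 1.48%, 1.32% and 1.17% in the AB pieces in that order, against 1.29% in E4_2, 1.28% in E4_2c_2 and 1.79% in E46_1. Both pairs of shares overlap between the sides.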

How the data were processed

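RNA was counted in 194 hand-separated blastomeres or pieces of embryos, of which 6 were compared. The authors deposited a table of whole-number counts, 16853 rows by 194 libraries, made with CASAVA 1.8, Bowtie2 2.1.0 and HTSeq 0.5.4p3, per the submitters' processing notes. Settings, build and identifier collapsing: not given in the sources used here. Each column took the sample whose description ends in its number, and 9 columns whose numbers also resemble another sample's title were not used. The deposited annotation of contigs was not used here, since nothing pairs its contigs with the rows.

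AB and E pieces were compared with edgeR 4.0.16 (R 4.3.3, limma 3.58.1), using TMM, filterByExpr (minimum count 10, minimum total 15), robust quasi-likelihood tests and Benjamini-Hochberg adjustment over all rows tested, and the procedure was tested on simulated data. DESeq2 1.42.0 was an alternative. CPM are counts divided by the library total and scaled in the usual way, and a pseudocount of 50 CPM was used for correlations. The standard error is the value that gives the test's F. Libraries under 10000 counts were left out elsewhere.

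The rule for named rows took the 2 with the smallest p in each direction, detected in at least 2 of 3 libraries of the higher side and with groups that do not overlap, and the 2 most abundant; none passed the adjusted threshold. Lists from other stages hold 50 rows in each direction. The 6 libraries, lists and rules were chosen with earlier results of these data known. Totals of 14722 to 109278 counts limit precision, and floors of 3 counts cover counting error only. The lowest chi-square between 2 of the 6 libraries was above counting noise, so none was treated as a duplicate. Alternatives were other normalizations and filters, thinning, left-out libraries, a replicate block, sums by title number, shared dispersions and DESeq2.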

Additional observations from a re-analysis of the deposited data

How the results depend on the processing

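With 0 rows called by edgeR, other settings gave 0 to 8 calls, and 13 of 23 also gave 0. No filter on low counts gave 3 calls among 16399 rows, titles ending in 2 alone gave 8 among 473, DESeq2 gave 7, and dispersions shared with other E4 and E8 libraries gave 1. Leaving out 1 library at a time gave 0 to 7 calls, and 0 to 3 with the rows tested held the same. Forms with the same rows, with counts expanded for 1024 identifiers and without the shallowest library of each side were chosen after seeing the data. Expansion and the last form gave 0 calls.

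The number ending the title was tried as a replicate block, which gave 1 call, row 16304, at an adjusted p of 0.0440 by edgeR. Deviations of the same-numbered libraries correlated at 0.083 between AB and E. This is a single contrast, so it cannot decide whether the number marks a pairing. The main fit used no block. Sums by title number gave 0 calls.

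The 4 leaning named rows kept their direction in the 22 alternatives run for each. Their log2 fold changes ran from 4.98 to 6.71 in row 16304, 2.86 to 4.06 in row 12303, -4.13 to -3.19 in row 4914 and -6.21 to -4.23 in row 15566. None was tested after thinning.

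The 2 most abundant rows changed sign. Without AB_ANT_2 the log2 fold change was -0.67 in row 11033 and -0.56 in row 16054, or -0.70 and -0.59 with the same rows tested, and over the 6 libraries left out in turn it ran up to 0.84 and 0.65, or 0.86 and 0.73 with the same rows. Summed by number it was -0.18 and -0.15, without the shallowest libraries -0.39 and -0.26, and with expanded counts -0.053 in row 11033.

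Leaving out 1 library moved the difference in log2 totals between -0.64 and 1.00, and that in thinned detected rows between -51.2 and 435. It moved list medians between -0.19 and 0.20 for rows higher in E8 post_Abp, -0.25 and 0.16 for those lower, 0.62 and 1.64 for rows higher in EMS, -0.58 and 0.41 for those lower, 0.091 and 0.45 for rows higher at E8 than at 2 cells, and -0.79 and 0.12 for those lower. With 100 rows the list lower in E8 post_Abp had a median of -0.24, and with 25 rows the list higher in EMS had 2.63. Depth limits all of this: 1 count in AB_ANT_2 is 67.9 CPM.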
